A study of Homo sapiens with 3 samples.

Results

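The mRNA levels of 46 genes of ribosome biogenesis and the nucleolus were examined in Huh7 cells, an established human hepatoma line, exposed to CA (chlorogenic acid, a phenolic compound of plants), which the study tested for its ability to make tumor cells differentiate. The genes were chosen by name as factors of nucleolar RNA processing, RNA polymerase I transcription and polyamine synthesis, known as growth and MYC target genes. They were 46 of the 19740 genes that could be named on the arrays through RefSeq accessions. The 46 genes and the lists set beside them below were chosen with earlier results of these data known. The data comprised 3 groups of the same line with 1 one-colour Agilent array each, namely untreated cells, cells under CA 50 μM and cells under CA 100 μM, the latter both for 24 h. The labels gave no genetic change for any group and no treatment for the untreated cells, and per the methods of the study dimethyl sulfoxide, the solvent of CA, served as its untreated control. With 1 array per group no test across samples was possible, no p-value is given, and every difference below is a difference between single arrays without a replicate check. In an RNA extract, fewer cells with a transcript and less of it per cell cannot be told apart.

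Ribosomes are built in the nucleolus, where RNA polymerase I transcribes the long precursor of the ribosomal RNAs. Small nucleolar ribonucleoproteins (snoRNPs) of the box C/D and box H/ACA classes then guide its methylation and pseudouridylation, and large complexes of processing factors cut it and assemble the small and the large subunit. The genes of these factors are used most by growing cells, including hepatoma cells and regenerating hepatocytes, and many are textbook targets of the transcription factor MYC, which binds with its partner MAX to the E-box CACGTG. Polyamines, made by ODC1, AMD1 and SRM, are small cations that bind RNA and are likewise needed for growth.

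The promoter windows of the genes are shown first. They held the E-box more often than promoters at large, but the genes were chosen as known MYC targets. The choice itself thus favoured the E-box, and its share is not an independent result. RefSeq promoter windows of 300 bases (250 before and 50 after the start site, GRCh38.p14) were found for 39 of the 46 genes, and no window was found for TCOF1, NOP58, NOLC1, RRP12, BOP1, RRS1 or DDX18. CACGTG, which reads the same on both strands, was present in the windows of 21 of the 39 genes (53.8%). Over all genes with a window the share was 8.77%, and over those measured on the arrays 12.1%. Of the 54 windows of the 39 genes, 22 (40.7%) held CACGTG. The share was 7.26% of all 35116 promoter windows of this length and 8.98% of the windows of genes measured on the arrays. Another palindrome, GACGTC, was present in windows of 2 of the 39 genes (5.13%), compared with 6.09% of all genes and 8.90% of those measured. Of 25 matches, 11 lay wholly before the start site, in 10 genes. The bases before the start site are given for SRM, the gene with the largest ratio at CA 50 μM, for UTP4 and NAT10, with a match close to the start and positive ratios, and for NOP10, which had 2 matches and the lowest ratio. The letters run 5′ to 3′ on the strand of the gene, and capitals mark CACGTG.
SRM, chr1:11060019-11060268, minus strand: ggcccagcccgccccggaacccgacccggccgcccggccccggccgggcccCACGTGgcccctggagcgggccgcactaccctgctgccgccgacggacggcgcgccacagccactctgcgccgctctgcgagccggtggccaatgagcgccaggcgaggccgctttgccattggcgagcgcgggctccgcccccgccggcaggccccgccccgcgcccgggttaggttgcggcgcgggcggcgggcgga
UTP4, chr16:69132399-69132648, plus strand: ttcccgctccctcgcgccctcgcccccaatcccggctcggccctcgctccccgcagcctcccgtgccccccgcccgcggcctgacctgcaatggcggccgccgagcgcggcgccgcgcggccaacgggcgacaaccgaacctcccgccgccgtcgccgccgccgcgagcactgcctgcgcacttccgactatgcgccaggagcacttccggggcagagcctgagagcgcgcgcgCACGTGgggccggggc
NAT10, chr11:34105379-34105628, plus strand: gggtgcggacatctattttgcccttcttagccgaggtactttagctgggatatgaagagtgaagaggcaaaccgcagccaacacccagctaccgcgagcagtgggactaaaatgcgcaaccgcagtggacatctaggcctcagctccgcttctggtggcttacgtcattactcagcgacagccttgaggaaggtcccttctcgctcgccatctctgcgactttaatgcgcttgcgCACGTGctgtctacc
NOP10, chr15:34343137-34343386, minus strand: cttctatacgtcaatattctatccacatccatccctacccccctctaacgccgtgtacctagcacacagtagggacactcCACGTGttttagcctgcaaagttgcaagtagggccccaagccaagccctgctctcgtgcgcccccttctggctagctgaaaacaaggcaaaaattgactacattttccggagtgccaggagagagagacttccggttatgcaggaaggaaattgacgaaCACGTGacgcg
Counted from the start site, the first base of the match was at position -199 in SRM, -16 in UTP4 and -15 in NAT10, and the matches of NOP10 were at -170 and -11. A match is a description of letters and not of binding. At CA 50 μM the median log2 ratio to untreated was 0.035 over the 21 genes with CACGTG in a window and 0.061 over the 18 genes with a window and no match. At CA 100 μM these medians were 0.022 and 0.024, so that the genes with and without the E-box had nearly the same median ratios.

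Per array, 70.4% to 71.1% of unflagged gene spots were well above background, and the 75th percentile of the processed signal was 1059, 1207 and 1249 intensity units for untreated, CA 50 μM and CA 100 μM cells. Intensities below are as deposited, whereas every log2 ratio is taken after each array was scaled to this percentile. Areas of disturbed spots covered 5.71% of gene spots on the CA 100 μM array and at most 0.139% on the others, and on the CA 100 μM array they held a spot of 10 of the 46 genes. Hepatocyte and hepatoma markers were abundant, with 9 or 10 of 11 well above background and a summed processed signal of 448592 to 460064 units. TF carried an outlier flag on the untreated and CA 50 μM arrays. HNF4A, a hepatocyte transcription factor, was well above background only at CA 50 μM, but its probe was dim on every array (9.4, 21.8 and 15.5 units). Of 7 markers of other cell types, PTPRC, CD3E, PECAM1 and ACTA2 were called above background on every array, and GFAP and MYOD1 on no array. COL1A1 (2.6, 3.3 and 51.7 units) was called only at CA 100 μM, from a spot in a disturbed area. The summed signal of the 7 markers, not scaled between arrays and with that spot included, was 806 units on the untreated array. It was 968 under the lower and 1026 under the higher dose, and its part in the results was not tested.

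All 46 genes, and all 56 of their probes, were well above background on the 3 arrays. At CA 50 μM the median log2 ratio to the untreated array was 0.052 over the 46 genes and -0.038 over all 14700 genes measured, and 30 of the 46 lay above the median of all genes. A log2 ratio of 0.32 or more in size was counted as higher or lower. By this rule 9 of the 46 genes (19.6%) were higher at CA 50 μM, compared with 13.1% of all genes, and 0 were lower, compared with 10.5% of all genes. The 9 higher genes were SRM, BOP1, PES1, RRP9, NPM3, PPAN, WDR74, TCOF1 and UTP4, at 1.26-fold to 1.54-fold. No member reached 2-fold in any comparison on its brightest probe, where 0.973% of all genes did so at CA 50 μM. At CA 100 μM the median was 0.031 over the 46 genes and -0.031 over all 14640 genes measured, and 32 of 46 lay above the median of all genes. At that dose 1 gene, SRM, was higher by this rule (5.91% of all genes) and 1 gene, NOL6, was lower (6.8% of all genes), while 0.656% of all genes changed by 2-fold. The 1 gene in each direction at CA 100 μM was 2.17% of the members. These counts are small and come from single arrays, so that no result about the members is drawn from their shares. The median of the members lay 0.091 above that of all genes at CA 50 μM and 0.062 above it at the higher dose. Among the 806 probes printed 10 times and usable on all arrays, the SD of this ratio at CA 50 μM between the spots of a probe was 0.064 in the median, an error of printing and scanning alone.

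**Figure D1:**
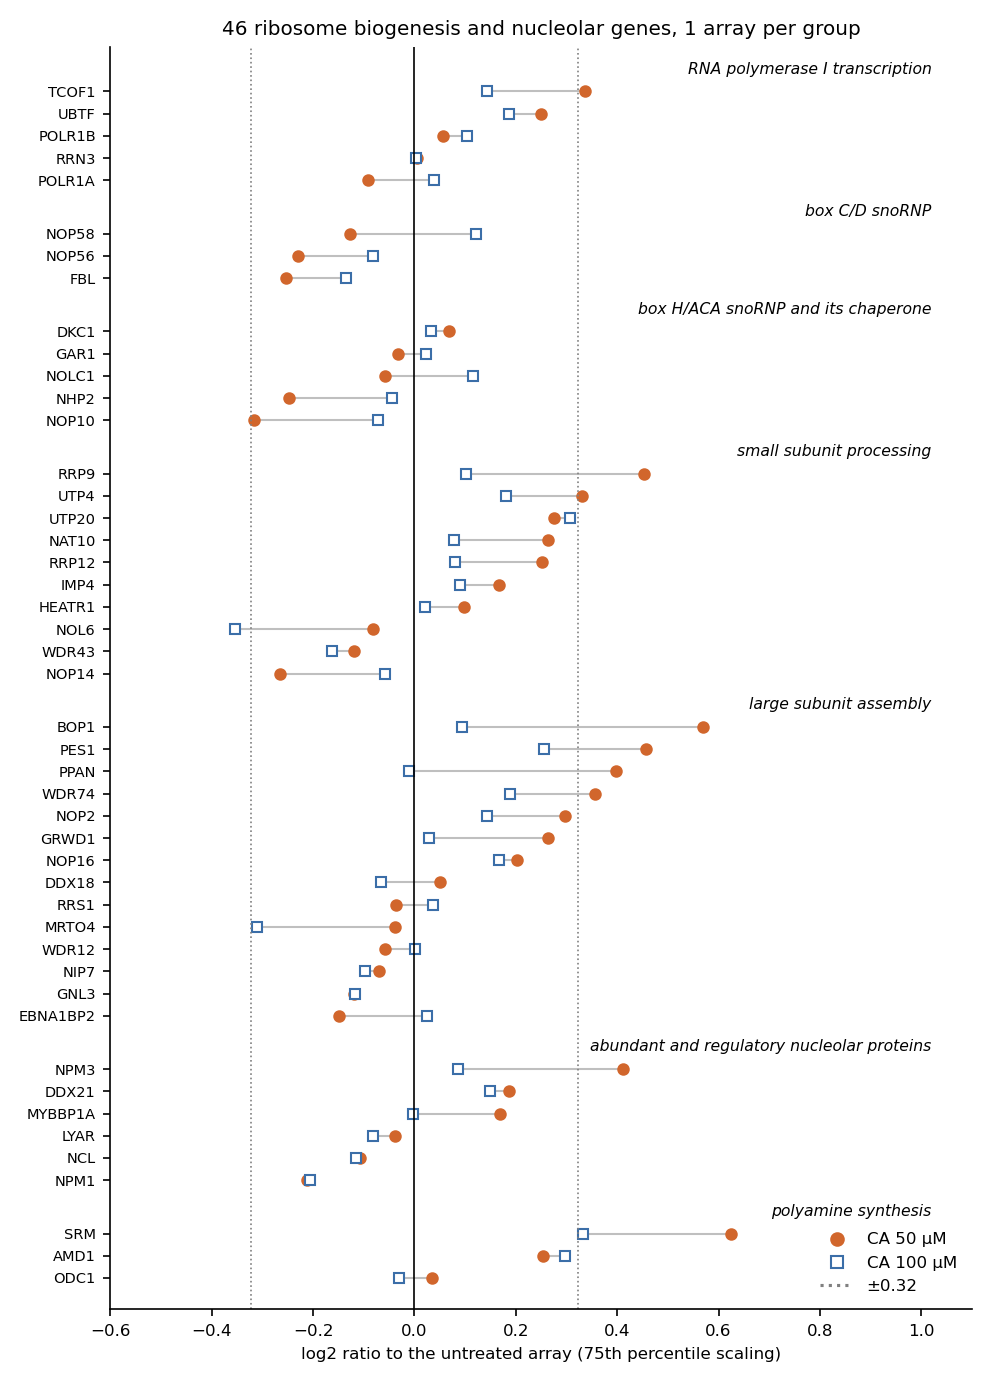
Log2 ratio of CA 50 μM (filled circles) and CA 100 μM (open squares) to the untreated array for the 46 genes, ordered by role, with 1 array per group and no error bars. Dotted lines mark 0.32 on either side of 0, which 9 genes passed upwards at CA 50 μM and only SRM did at CA 100 μM.

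The polyamine enzymes included the largest ratio of the group. SRM (spermidine synthase, which makes spermidine from putrescine) gave 1050 intensity units on the untreated array, 1846 under CA 50 μM and 1558 under CA 100 μM. The untreated array was thus the lowest and CA 50 μM the highest, and the ratios to untreated were 1.54-fold and 1.26-fold (0.62 and 0.33 on the log2 scale). AMD1, which supplies the aminopropyl groups for spermidine, had 7782, 10578 and 11283 units on its brighter probe, with log2 ratios of 0.25 and 0.30. Its dimmer probe gave 0.17 and 0.09, so that both probes were above 0 at both doses. ODC1, which makes putrescine and sets the pace of the pathway, gave 20235, 23639 and 23358 units. After scaling, its log2 ratios were 0.03 and -0.03, which is smaller than the SD between spots.

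The 5 members of RNA polymerase I transcription had median log2 ratios of 0.055 and 0.10 at CA 50 and 100 μM. TCOF1 (treacle, a nucleolar protein needed for transcription of ribosomal DNA) gave 2970, 4278 and 3866 units and log2 ratios of 0.34 and 0.14 on its brightest probe. UBTF, the factor that binds the promoter and body of ribosomal DNA, gave 520, 705 and 698 units, with log2 ratios of 0.25 and 0.19. Both genes were lowest on the untreated array. POLR1A, the largest subunit of the polymerase, had 725, 776 and 878 units and log2 ratios of -0.09 and 0.04. POLR1B, the second largest subunit, had 0.06 and 0.10, and RRN3, which carries the polymerase to the promoter, had 0.00 at both doses. Of these 5 genes, TCOF1 and UBTF had the larger ratios at CA 50 μM.

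All 3 box C/D proteins were below 0 at CA 50 μM, with a median log2 ratio of -0.23. FBL (fibrillarin, the methyltransferase) gave 31130, 29774 and 33451 units and log2 ratios of -0.25 and -0.13, the latter from a spot in a disturbed area. NOP56 gave 17370, 16899 and 19353 units and -0.23 and -0.08 on its brighter probe. NOP58, the other scaffold protein of this class, gave 18187, 18986 and 23337 units and -0.13 and 0.12. The CA 100 μM array thus lay above CA 50 μM for the 3 genes, by a median of 0.15. The direction of NOP58 at CA 50 μM depended on the scaling, since it was 0.0059 with quantile normalization, 0.0066 with cyclic loess and 0.017 in the authors' log2 values. Under the same scalings FBL was -0.15, -0.098 and -0.13, and NOP56 was -0.10 with cyclic loess. The other probe of NOP56 was above 0, as given below.

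The 4 core proteins of box H/ACA snoRNPs did not move as 1 block. DKC1 (dyskerin, the pseudouridine synthase) gave 4969, 5937 and 5997 units and log2 ratios of 0.07 and 0.03. GAR1 gave 5559, 6198 and 6657 units and -0.03 and 0.02. NHP2 gave 11071, 10629 and 12666 units and -0.25 and -0.04, and NOP10 gave 15530, 14218 and 17418 units and -0.32 and -0.07. NOP10, a small protein that binds dyskerin, was the lowest of all 46 genes at CA 50 μM and lay just within the limit of 0.32. NOLC1, a chaperone of snoRNPs, had log2 ratios of -0.06 and 0.12, the latter from a spot in a disturbed area. Relative to CA 50 μM, the CA 100 μM array was higher for 4 of the 5 genes, with DKC1 at -0.03.

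The 10 members of small subunit processing had the second highest median of the 7 role groups at CA 50 μM, 0.21, and 7 of 10 were above 0 at each dose. RRP9 (a protein of the U3 snoRNP, which is needed for early cleavages of the precursor) gave 1349, 2105 and 1707 units, which was highest at CA 50 μM and 1.37-fold and 1.07-fold over untreated. UTP4, a subunit of the UTP-A complex that binds the nascent precursor, gave 3746, 5374 and 5005 units and log2 ratios of 0.33 and 0.18. UTP20 gave 531, 733 and 775 units and 0.28 and 0.31, and was highest at CA 100 μM. NAT10, an RNA acetyltransferase, gave 775, 1062 and 966 units and 0.26 and 0.08. HEATR1 was printed 10 times and gave 0.097 and 0.021, and over the 6 spots usable on all arrays its ratios had an SD of 0.040 and 0.041. The lower members were NOP14 (4621, 4383 and 5233 units; -0.27 and -0.06), WDR43 (-0.12 and -0.16) and NOL6 (2307, 2485 and 2129 units; -0.08 and -0.35). NOL6 was the only member past -0.32 at CA 100 μM, and both NOP14 and NOL6 had a second probe of the opposite sign, as given below.

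Of the 14 large subunit assembly genes, 4 were higher at CA 50 μM by the rule of 0.32, and the median log2 ratio was 0.13. BOP1 and PES1 are partners in the PeBoW complex, which processes the large subunit precursor. BOP1 gave 411, 695 and 517 units, with log2 ratios of 0.57 and 0.09, the latter from a spot in a disturbed area. PES1 gave 234, 367 and 330 units, with 0.46 and 0.26. WDR12, the third subunit of that complex, gave 6254, 6849 and 7380 units and -0.06 and 0.00, so that the 3 partners did not share a ratio. PPAN gave 208, 312 and 243 units and 0.40 and -0.01, so that its CA 100 μM value was at the level of untreated cells after scaling. WDR74 gave 680, 994 and 915 units and 0.36 and 0.19. NOP2, an RNA methyltransferase of the large subunit, followed with 0.30 and 0.14, and GRWD1 with 0.26 and 0.03. EBNA1BP2, printed 10 times, gave 22347, 22977 and 26826 units and was lowest of this role at CA 50 μM, at -0.15 and 0.03. Over the 8 of its spots usable on all arrays the SD was 0.090 and 0.058. MRTO4 had -0.04 and -0.31, while GNL3 (nucleostemin) was -0.12 at both doses.

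Among the nucleolar proteins, the histone chaperone NPM3 gave 603, 914 and 754 units and log2 ratios of 0.41 and 0.09. NPM1 (nucleophosmin), its abundant relative, gave 81945, 80656 and 83764 units and -0.21 at both doses on its brightest probe. NCL (nucleolin), which binds the precursor RNA, gave 64380, 68130 and 70067 units and -0.11 and -0.12. MYBBP1A, a repressor of ribosomal RNA transcription, gave 201, 257 and 236 units and 0.17 and 0.00. DDX21, an RNA helicase, was at 0.19 and 0.15. The direction of both NPM1 and NCL turned with the scaling. NCL was 0.14 and 0.15 with quantile normalization and 0.08 and 0.04 with cyclic loess. NPM1 was 0.01 and 0.08 with quantile normalization and -0.01 and -0.05 with cyclic loess. NPM3 was highest on the CA 50 μM array. RefSeq names 50 pseudogenes of NPM1, and 14 of the 46 genes have at least 1 named pseudogene, SRM and FBL included. Whether such copies shared signal with the probes was not tested.

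Most of the genes were lower at CA 100 μM than at CA 50 μM, and 17 of 46 were above 0. In this direct comparison, the median log2 ratio of the 46 genes was -0.041, against 0.002 over all 14666 genes measured, and 16 of 46 lay above the median of all genes. No member was higher by 0.32 or more (4.18% of all genes), and 4 were lower (8.70% of the members and 9.53% of all genes), with 0.675% of all genes past 2-fold. These 4 were BOP1 at -0.48, PPAN at -0.41, RRP9 at -0.35 and NPM3 at -0.33, all of which were also among the 9 higher at CA 50 μM. The comparisons share arrays, so that a high value on the CA 50 μM array enters both. The CA 50 μM array was the highest of the 3 for 23 of the 46 genes (50%), compared with 35.1% of all genes, the untreated array for 13 (28.3%, against 45.3%) and CA 100 μM for 10 (21.7%, against 19.6%). For 26 genes (56.5%) the CA 100 μM value lay between the other two, about as for all genes (53.7%).

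The ratios varied with the brightness of the probe. When all genes measured on the 3 arrays were ordered by mean signal and cut into 5 equal classes, the median log2 ratio at CA 50 μM went from 0.02 and 0.03 in the dimmest classes through -0.02 and -0.05 to -0.12 in the brightest. Of the 46 genes, 0, 4, 8, 11 and 23 fell into these classes from dim to bright. The members showed the same order at a higher level, with medians of 0.32, 0.27, 0.17 and -0.06 in the 4 classes that held any. Within their own class, 33 of 46 lay above the median of all genes under the lower and 32 of 46 under the higher dose, but 15 of 46 when CA 100 μM was compared with CA 50 μM. All 9 genes that were higher by 0.32 or more at CA 50 μM gave at most 3746 units on the untreated array, and the box C/D proteins, NHP2, NOP10, NPM1 and NCL gave at least 11071. The part of this signal dependence in the differences between roles was not tested.

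**Figure D2:**
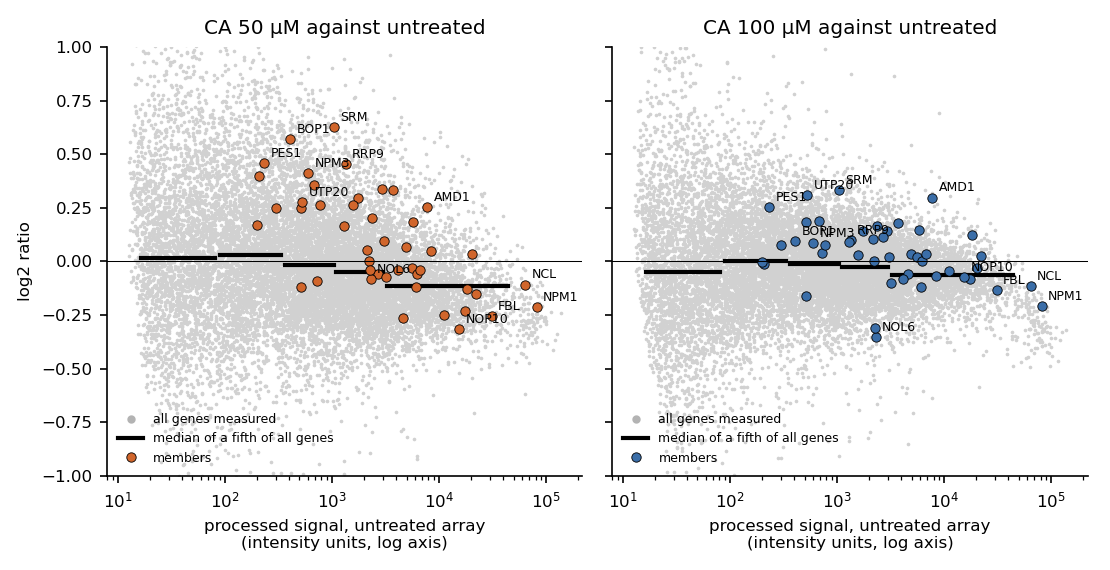
Log2 ratio to the untreated array against the processed signal of the untreated array (log axis) for all genes measured on the 3 arrays (grey) and the 46 members (coloured), at CA 50 μM (left) and CA 100 μM (right), with black bars for the median of each of 5 signal classes of all genes. At CA 50 μM the medians of all genes run from 0.02 at the dim end to -0.12 at the bright end, and most members lie above the bar of their class; genes beyond ±1 are not drawn.

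Of the 46 genes, 39 had 1 probe and 7 had several, and for 5 of the latter (NOP14, NOL6, NOP56, TCOF1 and RRN3) the probes differed in sign. NOP14 had log2 ratios of -0.27 and -0.06 on its brighter probe, and 0.55 and 0.38 on the dimmer one (128, 213 and 196 units). For NOL6 the dimmer probe (325, 527 and 458 units) gave 0.51 and 0.26, against -0.08 and -0.35 on the brighter. NOP56 had 0.25 and 0.18 on its dimmer probe (2035, 2764 and 2715 units). TCOF1 had 3 probes, of which the second (508, 561 and 557 units) gave -0.05 and -0.11 and the third (40, 80 and 98 units) gave 0.79 and 1.03. In these 4 genes the sign thus depended on the probe, and the lower call for NOL6 at CA 100 μM is that of 1 of its 2 probes. With the scaling used here the 3 probes of NPM1 were all below 0, with -0.21, -0.29 and -0.19 under the lower dose and -0.21, -0.32 and -0.28 under the higher. The probes of AMD1 were all above 0, and those of RRN3 lay between -0.03 and 0.23. At CA 100 μM, 1 probe each of RRN3, TCOF1, NOL6 and NPM1, none of them the brightest, was read from a disturbed area.

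**Figure D3:**
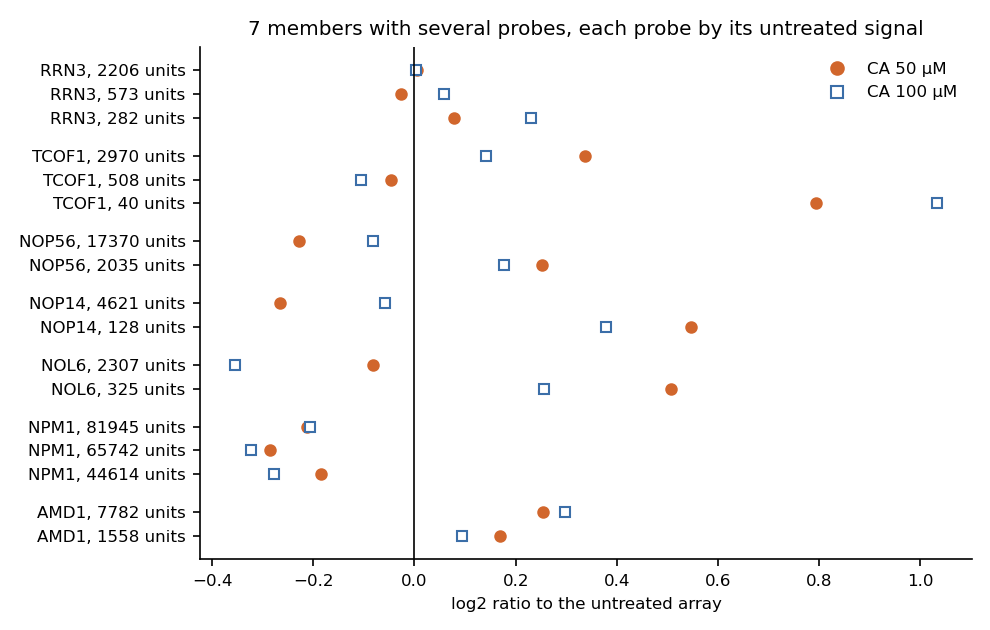
Log2 ratio of CA 50 μM (filled circles) and CA 100 μM (open squares) to the untreated array for each probe of the 7 genes with several probes, named with the intensity of the probe on the untreated array. NOP56, NOP14 and NOL6 have a bright probe below 0 and a dimmer probe above 0 at both doses, and the 3 probes of NPM1 lie below 0.

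A wider list of the pathway, with 118 further genes of which 117 were measured, lay closer to the rest of the genome. Its median log2 ratios were -0.012 and 0.0076 under the lower and the higher dose. By role, the medians under the lower dose were -0.082 for RNA polymerase I transcription, -0.004 for small subunit processing and -0.027 for large subunit assembly. The members of these roles had 0.055, 0.21 and 0.13. For the further genes of snoRNP assembly the median was 0.091, and for those of polyamine handling -0.11. Above the median of all genes lay 66 of the 117 under the lower and 78 of 117 under the higher dose. Of the 46 members, 30 and 32 did so. Under the lower dose 12 of the further genes (10.3%) were past 0.32 and 4 (3.42%) past -0.32, compared with 13.1% and 10.5% of all genes. Under the higher dose the counts were 3 (2.56%) and 1 (0.855%), compared with 5.91% and 6.8% of all genes. The highest under the lower dose were RRP7A at 1.05 (26, 61 and 52 units) and RRP1 at 0.91 (39, 83 and 91 units). NAF1, an assembly factor of box H/ACA snoRNPs, followed at 0.86 (43, 88 and 44 units), and all of them were dim. The lowest were POLR1C, a subunit shared by RNA polymerases I and III, at -0.38, PIH1D1, of a chaperone complex for snoRNPs, at -0.35, and TSR1, of small subunit maturation, at -0.34. At CA 100 μM the 3 higher genes were RRP1 (0.99, from a spot in a disturbed area), RRP7A (0.78) and WDR46 (0.37), and the lower one was TBL3 (-0.40). WDR46 and TBL3 were named after their values had been seen.

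The cytosolic ribosomal protein genes, whose products are built into the subunits, differed from the assembly factors. Over 76 of 77 genes measured the median log2 ratios were -0.25 and -0.26 under the lower and the higher dose. Past -0.32 were 23 (30.3%) and 21 (27.6%) genes, compared with 10.5% and 6.8% of all genes. Past 0.32 were 0 and 1 (1.32%), compared with 13.1% and 5.91% of all genes. Of the 76 genes, 75 lay in the brightest of the 5 signal classes, where the median over all genes was -0.12 and -0.06. These medians were negative under all settings tried but came as close to 0 as -0.028 and -0.0044, so that their size depended on the scaling. The first was in the authors' log2 values and the second with quantile normalization. There the medians of all genes were lower, at -0.035 and -0.018, so that the direction relative to all genes depended on the scaling too. CACGTG was present in windows of 4 of 62 of these genes (6.45%) and of 25 of 101 further pathway genes (24.8%). The share over the genes measured on the arrays was 12.1%. MYC itself gave 5811, 6865 and 7163 units over 10 spots, 1 of them in a disturbed area at CA 100 μM, with log2 ratios of 0.05 and 0.06. The 12 genes of the MYC network, MYC included, had medians of 0.007 and 0.003.

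**Figure D4:**
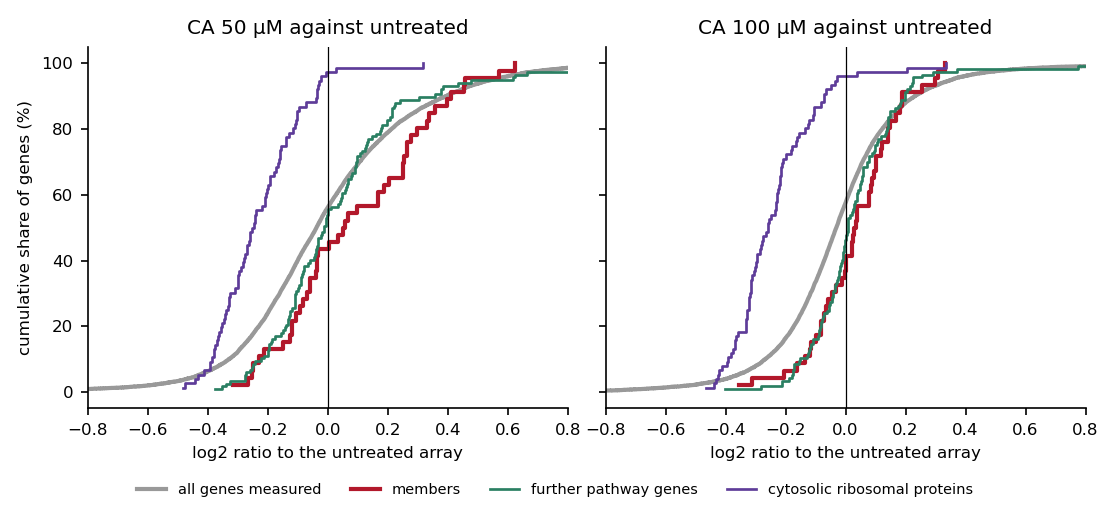
Cumulative share of genes (%) by log2 ratio to the untreated array at CA 50 μM (left) and CA 100 μM (right), for all genes measured, the 46 members, the further pathway genes and the cytosolic ribosomal proteins. The ribosomal proteins lie to the left, with medians of -0.25 and -0.26, and at CA 50 μM the members lie to the right of all genes, at 0.052 against -0.038.

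The position of the members above all genes was examined under 10 other ways of processing. The median of the members was above that of all genes in each of these settings at both doses, and it ranged from 0.0031 to 0.13 under the lower dose and from 0.0094 to 0.077 under the higher. Median centring shifts all ratios of a comparison alike, so it could not change the distance between the members and all genes. Leaving out saturated spots did not change it either, at 0.091 and 0.062. These settings are thus no separate check of that position. None of the 7 role medians changed sign at CA 50 μM. At CA 100 μM those of box C/D (up to 0.048), box H/ACA (down to -0.011), large subunit assembly (down to -0.015) and the nucleolar proteins (up to 0.076) did so. The median of the further pathway genes also changed sign, with ranges of -0.061 to 0.032 and -0.013 to 0.050, as did that of the MYC network. At CA 50 μM 31 of the 46 genes kept their sign in all 11 settings, 23 of them above and 8 below 0. No such count is given for all genes, and some settings, such as leaving out saturated spots, left the median of the members at 0.052. SRM, RRP9 and BOP1 were higher by 0.32 or more at CA 50 μM in all 11, TCOF1, PES1, WDR74 and NPM3 in 10, UTP4 in 9 and PPAN in 8. At CA 100 μM SRM was higher in 9 settings, and NOL6 was lower in 10, the exception being the mean over its probes. Against CA 50 μM, PPAN was lower by 0.32 or more in all 11, BOP1 in each of the 10 that gave it a value, RRP9 in 9 and NPM3 in 5.

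**Figure D5:**
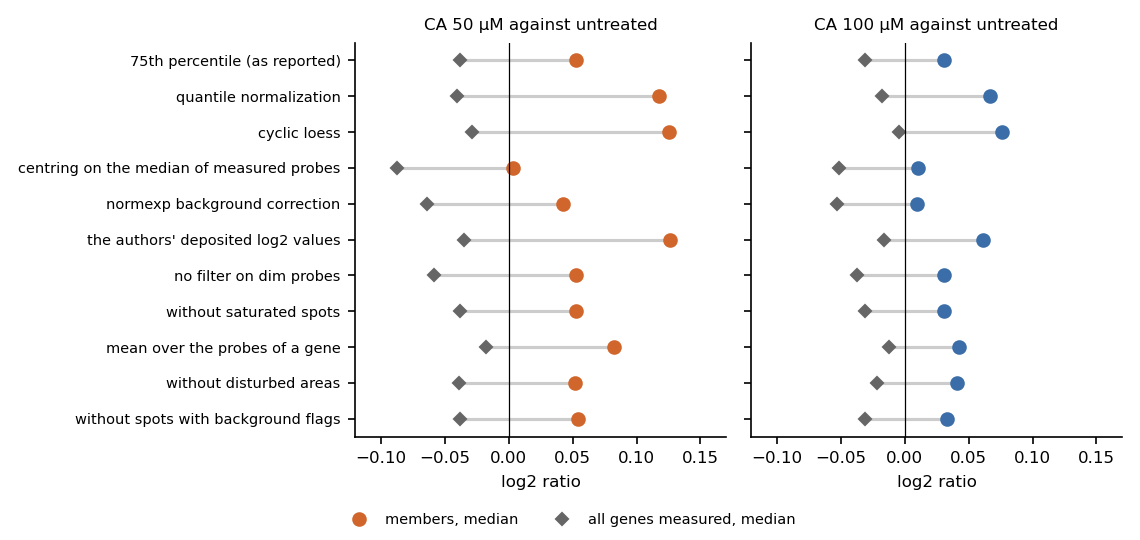
Median log2 ratio to the untreated array of the members (circles) and of all genes measured (diamonds) under the reported setting and 10 others, at CA 50 μM (left) and CA 100 μM (right). The members lie to the right of all genes in every row, by 0.091 and 0.062 in the reported setting, a distance that median centring cannot change.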

How the data were processed

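Total RNA, 1 sample per group, was amplified and Cy3-labelled for the arrays, which the authors read with Agilent Feature Extraction 11.0.1.1. The deposited spot files hold intensity in arbitrary units, from which background had been subtracted, and the arrays were not scaled to each other. The authors also deposited log2 values per probe, with medians of 6.22 on each array and correlations of at least 0.99996 with the log2 processed signal. Their method was not stated, and they served as an alternative. Here log2 intensity was scaled to the 75th percentile of each array, outlier spots were left out and the spots of a probe were averaged. A probe was well above background if at least 50% of its spots were. Probes were named from RefSeq accessions (GRCh38.p14 gene table, 25771 of 34127 probes), and a gene was given by its brightest probe above background on both arrays. No array coordinates are given, since the design was annotated on another build. Slide and scan could not be separated from group. The members and lists were chosen with earlier results of these data known.

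Named genes were, per role, the highest and lowest at CA 50 μM, members past 1.5-fold, members whose probes differ by over 1 (log2), the 3 brightest and 3 dimmest, the 4 box H/ACA core proteins, the 3 highest and lowest further pathway genes, and MYC, besides others in lists and ranges. Other settings tried were cyclic loess, quantile normalization, median centring, normexp with an offset of 50 on the median spot and local background signals, the authors' values, no filter, leaving out saturated spots, the mean over probes, leaving out disturbed areas (windows of 17 rows and 7 columns with many bright spots) or spots with background flags, and a 2-fold rule. One marker of another cell type is not reported here and is left out of the summed marker signal. The functions were tested on simulated arrays. Python 3.11.15, numpy 2.4.6, pandas 2.3.3, matplotlib 3.10.9, R 4.3.3 and limma 3.58.1 were used.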

Additional observations from a re-analysis of the deposited data

How the results depend on the processing

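The median of the members at CA 50 μM was 0.118 with quantile normalization, 0.125 with cyclic loess and 0.126 in the authors' log2 values, against 0.052 as reported. Members lower at CA 50 μM numbered 1 with centring on the median and 2 with normexp, against 0. Members higher at CA 100 μM numbered 2 with quantile normalization, cyclic loess, the authors' values, the mean over probes and without spots with background flags, and 0 with centring and normexp, against 1. Members lower at CA 100 μM numbered 2 with centring and 0 with the mean over probes, against 1, and members lower at CA 100 μM than at CA 50 μM numbered 2 with centring, normexp and without disturbed areas, against 4. With a 2-fold rule every count was 0. Without disturbed areas 42 members had a value at CA 100 μM, and BOP1, FBL, NOLC1 and DDX18 had none. The other medians over all 46 members stayed within the spread between spots, and the other counts of members within 1.5 times. Medians of smaller groups moved more, that of box C/D at CA 50 μM from -0.23 to -0.098 with cyclic loess, and those of the ribosomal proteins from -0.25 to -0.028 in the authors' values and from -0.26 to -0.0044 with quantile normalization. No named gene changed sign in a comparison where it was past the rule of 0.32. Of the genes within it, NCL, NPM1, NOP58, GAR1, ODC1 and NOP14, among others, changed sign at CA 50 μM. At CA 100 μM NCL, NPM1, NHP2, NOP10, EBNA1BP2, NPM3, MYBBP1A, ODC1 and NOP14, among others, did so. The cause of these differences was not tested. No paired analysis was possible because each group had 1 array, and no replicate could be left out. Dim probes limit precision, and the number of arrays limits every comparison.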
